A study of Mus musculus with 12 samples.

Results

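The collagen genes of mouse peritoneal macrophage cultures were followed through treatment with Remodelin, with interferon-γ (IFN-γ), and with both. Members were all protein-coding genes whose symbol has the form Col, a type number, a and a chain number, which gave 44 of the 55586 genes in the count table. Of these, 23 had 10 or more reads in at least 3 of the 12 libraries and 21 did not. The same 23 passed the filter on low counts that preceded the tests, and 13474 genes were tested in all. The rule reads symbols and biotype only, although the family was picked for description with earlier results of these data known.

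The 12 RNA-seq libraries fell into 4 groups of 3: untreated controls, IFN-γ, Remodelin hydrobromide, and Remodelin hydrobromide followed by IFN-γ (called the combined libraries). All cells were kept in 1640 medium with 10% fetal bovine serum and antibiotics, and no other agent or genotype was named for any group. Remodelin is a small molecule known as an inhibitor of the RNA acetyltransferase NAT10, and IFN-γ is the cytokine that activates macrophages. No dose, duration, mouse strain, number of animals or preparation batch was available from the labels, so p-values measure only the spread between libraries, which may be technical.

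Collagens are triple helices whose chains are often encoded by separate genes, so chains that share a helix are described together here. Fibrillar collagens (types I, III and V among them) build the tensile fibres of connective tissue, type IV builds the sheets of basement membranes, and type VI forms beaded filaments beside cells. Their main producers are fibroblasts, mesothelial and smooth muscle cells. Macrophages are better known for taking collagen up and degrading it, although macrophage collagen transcripts have been described.

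For the collagens on which the results turn, the stretch around the transcription start is shown first, from 250 bases before to 50 after it. The windows come from RefSeq on GRCm38.p6, whose table matched 35 of the 44 members with 38 windows. Col3a1 (chr1:45311288-45311587, plus strand) encodes the single chain of type III collagen. Col6a1 (chr10:76725995-76726294, minus strand) and Col6a2 (chr10:76623355-76623654, minus strand, 1 of its 2 windows) encode chains of type VI and lie near each other on chromosome 10. Col1a2 (chr6:4505368-4505667, plus strand) encodes a type I chain and is the most heavily read collagen here. Col4a2 (chr8:11312555-11312854, plus strand) is shown because it and Col4a1 are divergent neighbours whose windows share 78 bases. Counted between the starts used for the windows (11312826 for Col4a1, 11312805 for Col4a2), their transcribed ends overlap by 22 bases. The RefSeq gene span of Col4a1 reaches further, to 11312889. Capitals mark every match to the 4 motifs searched on both strands, written 5′ to 3′ along the gene's strand.
Col3a1: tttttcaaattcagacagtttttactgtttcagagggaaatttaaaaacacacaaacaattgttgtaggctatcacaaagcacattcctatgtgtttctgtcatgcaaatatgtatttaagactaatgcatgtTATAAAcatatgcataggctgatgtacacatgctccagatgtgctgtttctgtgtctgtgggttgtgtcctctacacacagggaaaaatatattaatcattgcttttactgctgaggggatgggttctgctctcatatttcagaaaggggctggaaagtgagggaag
Col6a1: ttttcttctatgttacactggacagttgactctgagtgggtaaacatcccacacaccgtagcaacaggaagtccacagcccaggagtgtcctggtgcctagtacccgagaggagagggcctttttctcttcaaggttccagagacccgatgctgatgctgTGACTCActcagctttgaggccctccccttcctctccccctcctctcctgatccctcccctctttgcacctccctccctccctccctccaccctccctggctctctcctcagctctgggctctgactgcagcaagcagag
Col6a2: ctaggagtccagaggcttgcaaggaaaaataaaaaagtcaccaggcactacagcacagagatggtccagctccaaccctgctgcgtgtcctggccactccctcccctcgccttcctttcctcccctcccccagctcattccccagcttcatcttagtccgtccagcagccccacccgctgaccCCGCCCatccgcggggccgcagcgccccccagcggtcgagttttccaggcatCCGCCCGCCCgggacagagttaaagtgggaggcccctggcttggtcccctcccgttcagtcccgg
Col1a2: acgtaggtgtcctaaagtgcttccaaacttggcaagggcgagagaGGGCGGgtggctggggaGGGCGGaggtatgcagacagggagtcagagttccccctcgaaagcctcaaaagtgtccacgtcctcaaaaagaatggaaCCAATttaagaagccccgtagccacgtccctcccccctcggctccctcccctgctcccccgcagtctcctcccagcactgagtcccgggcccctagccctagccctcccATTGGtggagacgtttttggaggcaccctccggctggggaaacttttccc
Col4a2: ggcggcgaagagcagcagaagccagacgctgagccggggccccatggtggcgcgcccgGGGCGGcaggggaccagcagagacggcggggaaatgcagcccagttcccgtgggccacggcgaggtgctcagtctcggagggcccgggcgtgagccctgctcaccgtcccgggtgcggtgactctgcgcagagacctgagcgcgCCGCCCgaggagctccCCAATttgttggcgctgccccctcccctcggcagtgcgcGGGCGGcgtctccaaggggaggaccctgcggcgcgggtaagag

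The core promoter was searched for TATAAA, which the general transcription machinery reads, and for CCAAT, which NF-Y binds. The SP1 motif was GGGCGG and the AP-1 motif TGANTCA. Positions are those of the first matching base, counted from the start at 1 with negative values before it. Col3a1 had 1 match, TATAAA at -117, and Col6a1 had 1 match, TGACTCA at -90, which the motif reads on both strands. Col6a2 had 3 GGGCGG matches on the opposite strand at -67, -15 and -11, of which the last 2 overlap. Col1a2 had GGGCGG at -205 and -188, CCAAT at -109 and the opposite-strand CCAAT at 1. No motif of the 4 was found in more than 1 of the windows shown for Col3a1, Col6a1 and Col6a2. Over all member windows GGGCGG occurred in 60.5% (23 of 38), against 35.7% of all 32851 windows of that length in the table. TATAAA was in 13.2% of member windows (13.6% of all), CCAAT in 34.2% (37.4%) and the AP-1 motif in 2.63% (7.81%). A match is a run of letters and not a measured binding site.

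Library totals ran from 15917454 to 19418665 reads assigned to genes, and 3586 to 16777 of these fell on collagen genes (0.0225 to 0.0932%). Of 12 macrophage markers 11 passed the low-count filter, and none was called in any comparison. Their summed level was 15088 to 25400 CPM (read counts scaled to a common library size, adjusted by TMM). Most of that sum was Lyz2, at 12665 to 23170 CPM. Adgre1 was at 172 to 200 CPM in the libraries with Remodelin and 148 to 171 CPM in those without. Such a separation, higher with Remodelin, was seen for 1.24% of all tested genes. Timd4, a marker of resident peritoneal macrophages, had fewer than 10 reads in every library. Replicate 1 was the library farthest from its group mates over all tested genes among the controls, the Remodelin and the combined libraries, and these 3 libraries also lay at the ends of the collagen range. Results that depend on them are given with and without them.

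Per unit of length the type I chains led on average over the 12 libraries. In FPKM, a unit that scales fragments to library size and transcript length, Col1a1 stood at 15.0 ± 6.56 and Col1a2 at 14.8 ± 4.30 (mean ± SD over the 12 libraries, n = 12), and these neighbours did not differ beyond their spread. Col6a1 followed at 10.4 ± 4.54 FPKM, within the spread of both, but that spread pools the treatment groups. In the controls Col6a1 was at 16.3 ± 3.39 FPKM and Col1a2 at 17.6 ± 4.53 FPKM (SD, n = 3 each). With IFN-γ their means were 11.3 and 11.8 FPKM. With Remodelin Col6a1 was below Col1a2, at 6.83 ± 1.66 against 16.2 ± 4.44 FPKM (SD, n = 3 each). In the combined libraries their means were 7.18 and 13.6 FPKM. Next over the 12 libraries came Col3a1 at 3.82 ± 1.64 FPKM and Col6a2 at 3.66 ± 1.58 FPKM, not separated by the pooled spread. Col5a2 (2.30 ± 0.54), Col4a1 (1.72 ± 0.57) and Col5a1 (1.40 ± 0.53 FPKM) were the remaining members of the top 8. The ratio of Col1a1 to Col1a2 in FPKM lay between 0.702 and 1.29 in the 12 libraries, with the value of 1.29 in control 1 and that of 0.702 in combined 1. Both encode chains of the same type I helix.

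By class, the fibrillar genes held 73.2% of all collagen reads (9 of 11 genes passed 10 reads in 3 libraries). The beaded filament genes held 17.2% (3 of 6 passed), and the basement membrane genes 6.44% (4 of 6). Multiplexins, which release anti-angiogenic fragments such as endostatin from Col18a1, held 1.51% (2 of 2 passed). The fibril-associated class held 1.21% (3 of 9 passed), the short-chain class 0.248% (Col8a2, 1 of 3) and the transmembrane class 0.164% (Col23a1, 1 of 4). Col7a1, the anchoring fibril of skin, did not pass.

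Of the 21 members that did not pass, 16 had at least 1 read and 5 had none in any library: Col9a1, Col11a1, Col25a1, Col26a1 and Col28a1. A count of 0 in these libraries allows a level of up to 0.154 to 0.188 CPM (3 reads of each library, counting error only). The most heavily read of the 16 were Col8a1 (35 reads over 12 libraries), Col22a1 (34), Col7a1 (31), Col6a5 (30), Col6a4 (25), Col14a1 (22) and Col6a6 (20). Col22a1 reached 10 reads in 1 library, and the other 15 reached it in none. Col4a4 and Col9a3 had 15 reads each and Col4a3 had 8. Cartilage collagen Col2a1 had 2 reads, as did Col9a2, Col13a1 and Col17a1, while Col10a1 and Col19a1 had 1 each. Of the long type VI chains Col6a3 alone passed, and of Col4a3, Col4a4 and Col4a5, whose chains share a helix, Col4a5 alone did.

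**Figure D1:**
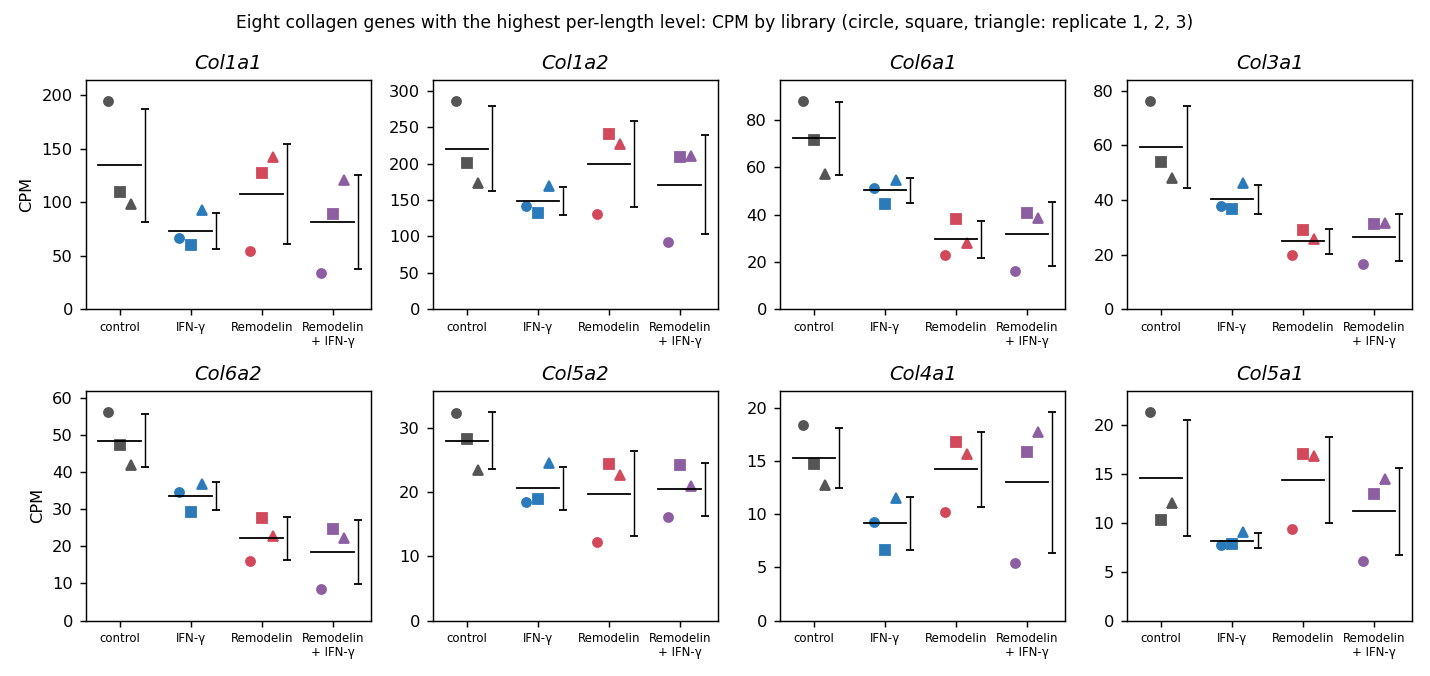
Levels of the 8 collagen genes with the highest FPKM, in CPM by group, with 1 point per library (circle, square and triangle for replicates 1, 2 and 3), a line at the group mean and a bar of 1 SD. Col3a1, Col6a1 and Col6a2 are lower in each library with Remodelin than in any without, while for Col1a1 and Col1a2 the groups overlap.

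Col3a1, Col6a1 and Col6a2, which encode chains of types III and VI, were the 3 collagens lower with Remodelin. Averaged over cells with and without IFN-γ, each fell by close to 1 on the log2 scale, whereas the type I chains, Col6a3 and the type IV chains did not pass the test in either direction. Col3a1 encodes the chain of thin, extensible fibrils, and Col6a1 and Col6a2 encode the short chains that combine with a long chain such as that of Col6a3. In these bulk cultures fewer cells of a type and less RNA per cell cannot be told apart.

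Col3a1 stood at 76.3, 53.9 and 47.9 CPM in controls 1 to 3, and at 19.99, 28.8 and 25.8 CPM in the Remodelin libraries. With IFN-γ it was at 37.7, 36.7 and 46.3 CPM without Remodelin and at 16.5, 31.3 and 31.5 CPM with it. Every Remodelin library was below every library without Remodelin at the same IFN-γ level, and also across the levels. The log2 fold change of Remodelin against control was -1.25 ± 0.24 (SE, n = 3 per group), with an adjusted p of 0.0161 in edgeR's quasi-likelihood test. Adjustment was by Benjamini-Hochberg over all 13474 genes, and a gene is called when it is under 0.05. In the presence of IFN-γ the change was -0.61 ± 0.23 and did not pass (edgeR adjusted p = 0.228). The average of both was -0.93 ± 0.17 (edgeR adjusted p = 0.00377).

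Col6a1 had 88.2, 71.4 and 57.1 CPM in the controls and 22.9, 38.1 and 27.9 CPM with Remodelin. The IFN-γ libraries held 51.3, 44.6 and 54.8 CPM, and the combined libraries 16.3, 40.7 and 38.4 CPM. Again the 6 libraries with Remodelin lay below the 6 without. Its change was -1.28 ± 0.27 without IFN-γ (edgeR adjusted p = 0.0328), -0.66 ± 0.27 with it (0.249) and -0.97 ± 0.19 on average (0.00734).

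Col6a2 had 56.2, 47.5 and 41.9 CPM in the controls, 16.1, 27.7 and 22.9 CPM with Remodelin, 34.8, 29.4 and 36.8 CPM with IFN-γ, and 8.62, 24.6 and 22.3 CPM with both. All 6 libraries with Remodelin were below all 6 without, and combined 1 was the lowest. The change was -1.13 ± 0.28 without IFN-γ, which missed the threshold (edgeR adjusted p = 0.0744). It was -0.86 ± 0.28 with IFN-γ (0.173) and -0.99 ± 0.20 on average (0.00816).

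As counts, Remodelin against control called 2 of the 23 tested members lower and 0 higher, against a background of 0.653% of all genes called lower and 0.193% higher. The members' median change was -0.30, with 20 of 23 negative, and the median over all genes was 0.01. At an unadjusted p under 0.05 there were 7. The share of all genes under that unadjusted p was not computed, for this contrast or any other. Groups did not overlap for 7 members that were lower (background 10.3%) and for 2 that were higher (background 6.09%), Col16a1 and Col5a3. With IFN-γ present, edgeR called 0 of 23 in the same contrast (background 0.364% in either direction), with 4 at an unadjusted p under 0.05 and 0 called by DESeq2 or limma-voom. Of these, 3 did not overlap and were lower (background 15.6%), and Col16a1 did not overlap and was higher (background 12.2%). The average effect called 3 of 23 lower (background 4.8%) and 0 higher (background 2.24%), and 7 had an unadjusted p under 0.05. For the same 3 the 6 libraries with Remodelin lay below the 6 without, against a background of 3.42%, and for 0 the reverse (background 1.24%). The median average effect over the members was -0.08.

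The calls without IFN-γ changed with single libraries, while the fold changes stayed between -1.39 and -1.03 for Col3a1 and between -1.51 and -1.12 for Col6a1. Calls over all genes also moved, from 114 to between 20 and 121. Without control 1 both were lost (edgeR adjusted p = 0.0534 for Col3a1 and 0.0804 for Col6a1). They were also lost without control 2 (0.0669 and 0.121) and without Remodelin 3 (0.0567 and 0.118). Leaving out Remodelin 1 or Remodelin 2 lost Col6a1 alone (0.0796 and 0.0512). The averages for Col3a1, Col6a1 and Col6a2 were called in 20 of 20 alternatives (other tools, scalings and filters, the block, or 1 library left out), with log2 changes from -1.12 to -0.78. The interaction, which asks whether Remodelin acted differently with IFN-γ, called 0 members with an unadjusted p under 0.05 for 0 (background 0.00742%).

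**Figure D2:**
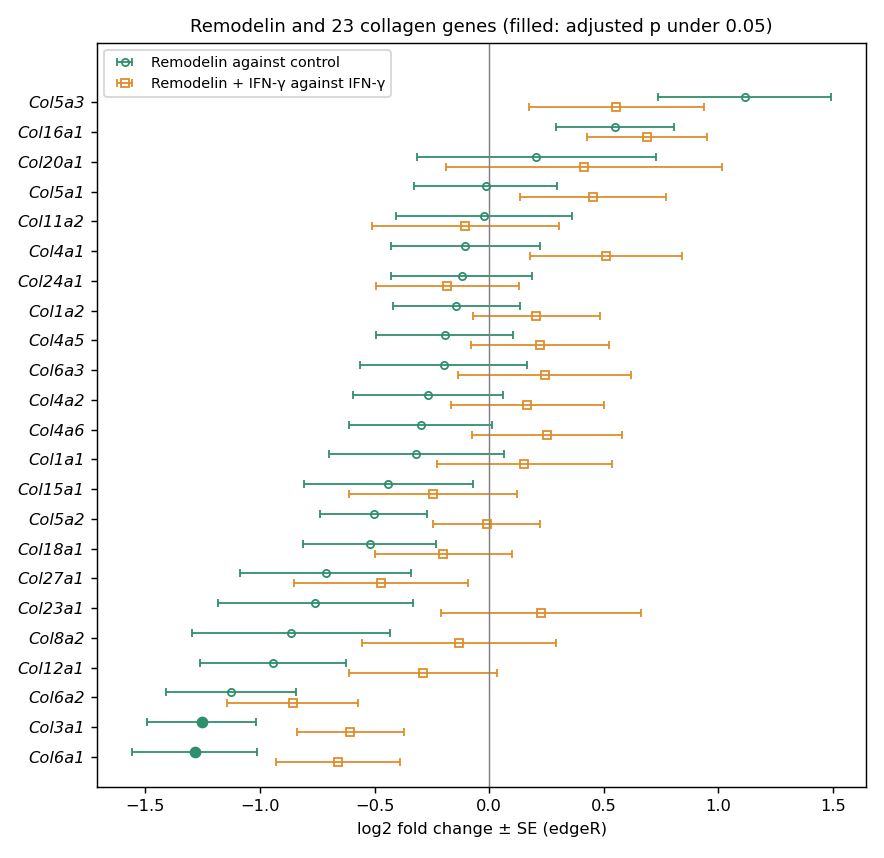
Log2 fold change with its SE of the 23 tested collagen genes for Remodelin against control (circles) and for the same contrast in the presence of IFN-γ (squares), with filled symbols where the adjusted p is under 0.05. Only Col6a1 (-1.28) and Col3a1 (-1.25) are filled, both in the contrast without IFN-γ.

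The type I genes took another course. Col1a2 was read at 287, 201 and 174 CPM in the controls and at 132, 240 and 227 CPM with Remodelin. The groups overlapped, since Remodelin 1 was lowest and Remodelin 2 and Remodelin 3 were above 2 of the controls. Its average change was 0.03 ± 0.20 (edgeR adjusted p = 0.936). Col1a1 was at 195, 110 and 98.5 CPM in the controls and 54.5, 127 and 142 CPM with Remodelin, with an average change of -0.08 ± 0.27 (0.868). Neither interval shows that the genes stayed level. Together the type I chains made up 56.7, 52.6 and 52.6% of collagen reads in the controls, 51.0, 51.7 and 53.4% with IFN-γ, 59.5, 63.3 and 66.3% with Remodelin and 56.5, 59.8 and 62.4% with both. In 5 of the 6 Remodelin libraries the share exceeded that of all libraries without it, and combined 1 was the exception, just under control 1.

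When control 1, Remodelin 1 and combined 1 were left out together, a setting added after seeing the data, the type I and some type V and VI genes turned. In that setting Col1a2 was higher with Remodelin against control by 0.34 on the log2 scale (edgeR adjusted p = 0.0404), Col5a1 by 0.62 (0.00619) and Col6a3 by 0.57 (0.0412). On average Col1a1 was then higher by 0.47 (0.00109). That setting called many genes, however: 4 members were called higher against control beside 17.8% of all genes, and 8 of 23 on average beside 20.1%. In that setting Col3a1, Col6a1 and Col6a2 were still called on average, with smaller changes of -0.61, -0.63 and -0.65 (edgeR adjusted p = 1.43e-05, 2.03e-05 and 9.84e-06).

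Since libraries of a group differed in total collagen, each member was also set against Col1a2 within its own library, an analysis chosen after seeing the data. A ratio shows unequal change and does not show that either gene held its level. In the 6 libraries without Remodelin there were 0.265 to 0.276 reads of Col3a1 per read of Col1a2, and in the 6 with Remodelin 0.114 to 0.179. Col6a1 went from 0.308 to 0.360 without Remodelin to 0.123 to 0.194 with it, and Col6a2 from 0.196 to 0.244 to 0.0934 to 0.122. For each of the 3 the ranges did not overlap, and combined 1, which was lowest in CPM, lay within the range of its group here. The average log2 changes of the ratios were -0.93, -1.01 and -1.05, each with an exact permutation p of 0.005 (two-sided, permuted within each IFN-γ level), the smallest the design allows. These p-values are not adjusted for the 22 members compared with Col1a2. No other member of the 22 separated 6 libraries from 6. The share of all genes that do so against Col1a2 was not computed.

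Among the rest, Col6a3 ranged from 0.0321 to 0.0528 reads per Col1a2 read without Remodelin and from 0.0333 to 0.0511 with it (exact permutation p = 0.99), and Col1a1 changed by -0.16 (exact permutation p = 0.25). Without the replicate 1 library of every group the log2 changes against Col1a2 were -1.05 for Col3a1, -1.05 for Col6a1, -1.06 for Col6a2, 0.18 for Col6a3 and 0.02 for Col1a1. Col5a3 against Col1a2 changed by 0.86 (exact permutation p = 0.01), Col16a1 by 0.64 (exact permutation p = 0.015) and Col5a1 by 0.21 (exact permutation p = 0.03). Col12a1, a fibril-associated collagen, changed by -0.58 (exact permutation p = 0.03), Col15a1 by -0.33 (exact permutation p = 0.025) and Col18a1 by -0.41 (exact permutation p = 0.05). For these the groups overlapped, and the p-values are unadjusted over 22 comparisons.

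**Figure D3:**
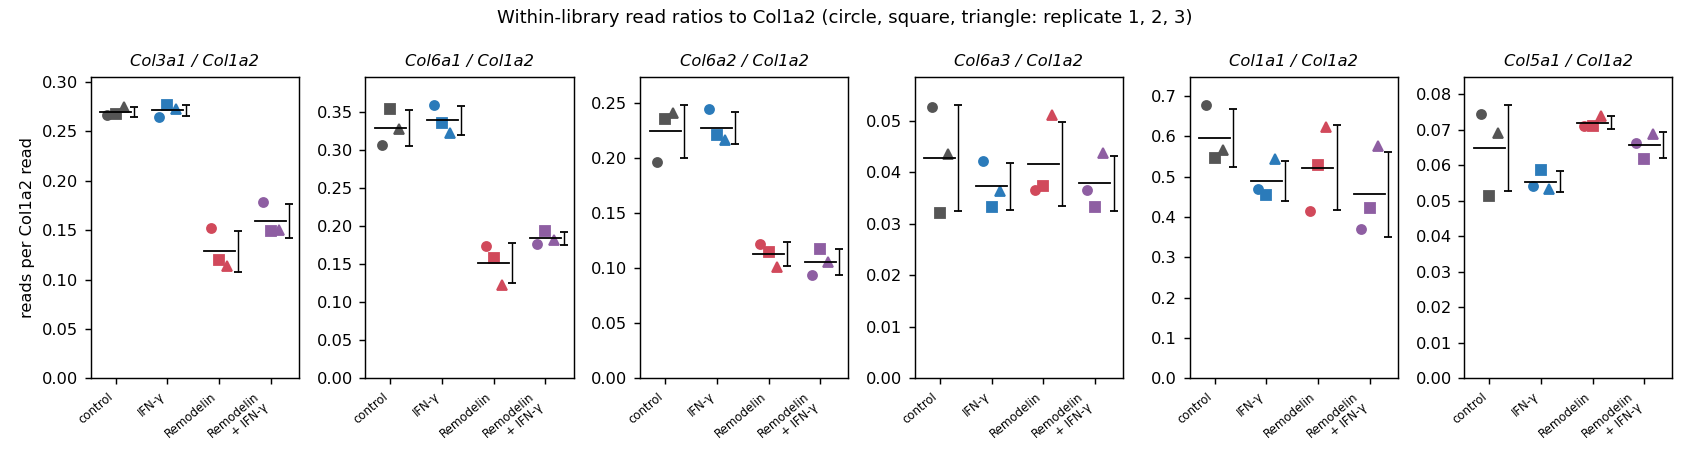
Reads per read of Col1a2 in each library for 6 collagen genes, by group on linear axes from 0, with a line at the group mean and a bar of 1 SD. Col3a1 lies at 0.265 to 0.276 without Remodelin and at 0.114 to 0.179 with it, and Col6a1 and Col6a2 also separate, whereas Col6a3, Col1a1 and Col5a1 overlap.

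Chains of 1 helix did not all move together. Within type VI, Col6a1 was 15.92 to 30.2 times as abundant as Col6a3 in FPKM without Remodelin and 6.56 to 15.88 times with it. These ranges adjoined without overlap, with control 1 lowest among the libraries without Remodelin. The ratio changed by -1.005 on the log2 scale and that of Col6a2 to Col6a3 by -1.05 (exact permutation p = 0.005 for each). By contrast the ratio of Col6a2 to Col6a1 was 0.278 to 0.431 in all 12 libraries and changed by -0.04 (exact permutation p = 0.58). Within the fibrillar class, Col3a1 against Col5a2 changed by -0.66 and separated 6 from 6 libraries (exact permutation p = 0.005). Col3a1 against Col1a1 changed by -0.76 (exact permutation p = 0.005), with overlap. The type IV neighbours Col4a1 and Col4a2, whose starts are shown above, had a Col4a2 to Col4a1 ratio in FPKM of 0.777 to 0.963 without Remodelin and 0.649 to 0.815 with it, which overlap (change -0.21, exact permutation p = 0.03), and Col4a6 to Col4a5 changed by -0.07 (exact permutation p = 0.74). For the type V chains, Col5a1 to Col5a2 changed the other way, by 0.47 (exact permutation p = 0.025), with overlap. In all, 9 pairs of members were compared, unadjusted. Those with Col3a1, Col6a1 or Col6a2 were set up after the separation of these genes by Remodelin was known. Their p-values are therefore not independent support.

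Libraries differed in how counts followed the GC content of genes. The longest transcripts of Col3a1, Col6a1 and Col6a2 have 52.5, 56.7 and 55.2% GC, those of Col1a2, Col1a1 and Col6a3 have 55.7, 58.9 and 54.5%, and the median of tested genes is 49.8%. After each library's GC trend was removed, the ratios to Col1a2 changed by -1.01 for Col3a1, -0.99 for Col6a1 and -1.06 for Col6a2, as large as before (exact permutation p = 0.005 each).

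Several members with lower counts had values in either direction. Col16a1, a fibril-associated collagen, was at 2.53, 2.44 and 3.37 CPM in the controls and 3.46, 4.38 and 4.33 CPM with Remodelin. It stood at 2.43, 1.75 and 2.86 CPM with IFN-γ and 3.00, 4.44 and 3.90 CPM with both, so each contrast had separate groups, all higher with Remodelin. The average change of 0.62 ± 0.18 just missed the threshold (edgeR adjusted p = 0.0507). Col5a3, the third chain of some type V helices, was at 0.706 to 1.21 CPM in the controls and 1.91 to 2.19 CPM with Remodelin (average 0.84 ± 0.27, edgeR adjusted p = 0.0687). With DESeq2 both passed, Col16a1 at 0.64 (adjusted p = 0.0192) and Col5a3 at 0.86 (0.0360), so whether they are called depends on the tool. Col12a1 was at 2.33 to 3.95 CPM in the controls and 1.02 to 1.79 CPM with Remodelin (average -0.62 ± 0.23, edgeR adjusted p = 0.105). For the basement membrane, Col4a1 averaged 15.3 ± 2.85 CPM in the controls and 14.2 ± 3.55 CPM with Remodelin (SD, n = 3 each), a difference within the spread.

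IFN-γ alone was accompanied by lower collagen counts that no gene carried past the threshold. Of the 23 tested members, 22 had a negative change against control, with a median of -0.55 beside 0.00 over all genes, and edgeR called 0 of them (background 0.0148%). At an unadjusted p under 0.05 there were 8 (share over all genes not computed), and DESeq2 called 0. Groups did not overlap for 11 of the 23, all lower (background 8.51%, and 9.18% higher): Col1a1, Col1a2, Col3a1, Col4a1, Col4a6, Col5a1, Col6a1, Col6a2, Col6a3, Col18a1 and Col20a1. Members share libraries, so these 11 are not 11 separate observations.

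Col1a1 is the widest example, with 195, 110 and 98.5 CPM in the controls and 66.7, 60.4 and 92.5 CPM with IFN-γ. Its change was -0.88 ± 0.38 (edgeR adjusted p = 0.889, a value it shares with most members). In Col5a1, 21.4, 10.3 and 12.1 CPM in the controls faced 7.70, 7.80 and 9.05 CPM with IFN-γ, a change of -0.83 ± 0.32. Control 1 was the highest control in both. Without it the changes were -0.51 for Col1a1, -0.34 for Col1a2, -0.34 for Col3a1, -0.45 for Col5a1 and -0.59 for Col4a1, all uncalled. In the authors' deposited table Col1a1 was lower with IFN-γ by 0.63 on the log2 scale with an adjusted p of 0.0209, the only member past 0.05 there.

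**Figure D4:**
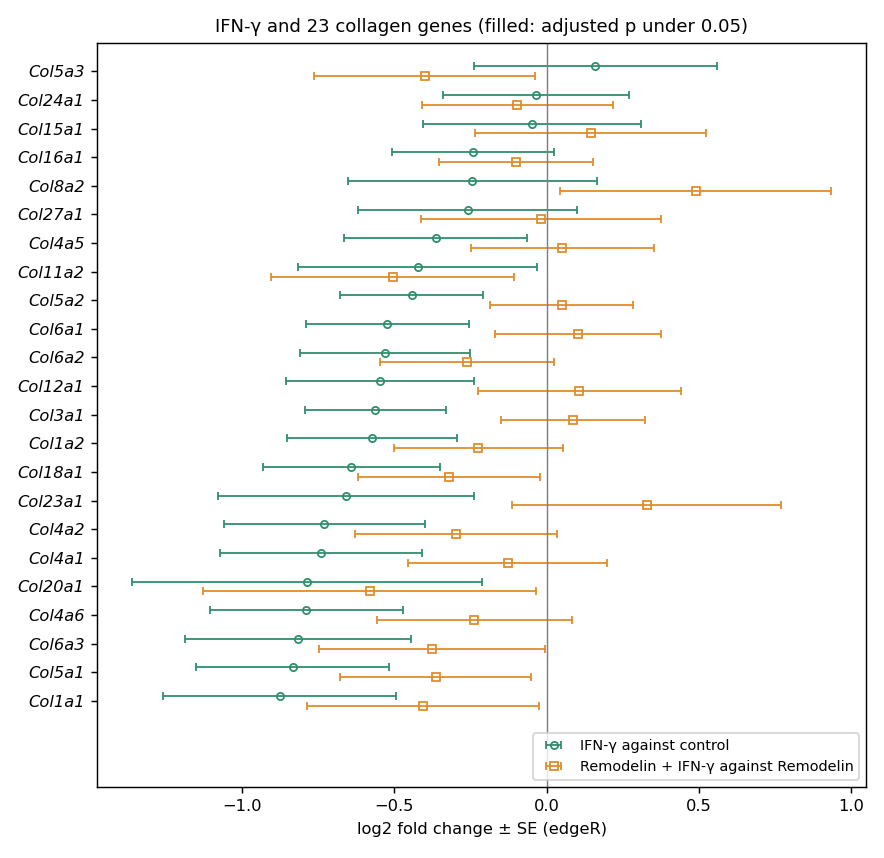
Log2 fold change with its SE of the 23 tested collagen genes for IFN-γ against control (circles) and for IFN-γ added to Remodelin (squares), with filled symbols for an adjusted p under 0.05, of which there are none. In the first contrast 22 of 23 values are negative, and in the second 15.

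Added to Remodelin, IFN-γ gave 15 negative and 8 positive changes with a median of -0.13. No member was called (background 0), 0 had an unadjusted p under 0.05, and in 0 were the groups apart (background 3.49% lower and 5.99% higher). Averaged over both Remodelin levels, the IFN-γ effect had 21 of 23 negative with a median of -0.24, 6 at an unadjusted p under 0.05 and 0 called (background 0.00742%). The interaction was positive for 20 of 23 with a median of 0.43, and with 0 at an unadjusted p under 0.05 it was not established for any member. As a sum, collagens took 653 ± 174 CPM in the controls, 425 ± 60.0 with IFN-γ, 483 ± 148 with Remodelin and 418 ± 169 CPM with both (SD, n = 3 each). Control sums ran from 519 to 849 CPM and IFN-γ sums from 374 to 491 CPM without overlap, while the Remodelin sums of 313 to 580 CPM overlapped the controls.

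**Figure D5:**
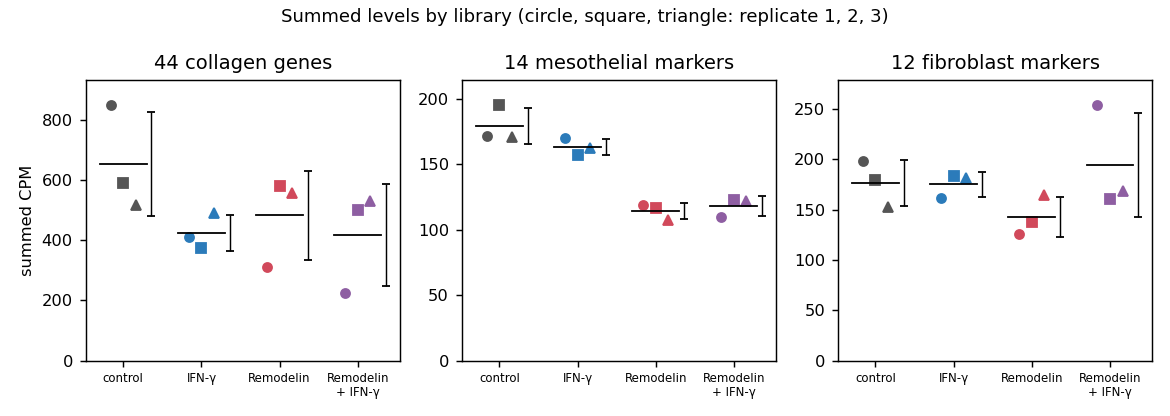
Summed CPM per library of the 44 collagen genes, 14 mesothelial markers and 12 fibroblast markers, by group, with a line at the mean and a bar of 1 SD. Control 1 has the highest collagen sum (849 CPM) and combined 1 the lowest (224 CPM), while the mesothelial sum is 108 to 123 CPM in the libraries with Remodelin and 157 to 195 CPM in those without.

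Of 31 collagen-modifying enzymes, chaperones and processing proteases, 26 were tested, and against control 2 were lower (background 0.653%) and 0 higher (background 0.193%). They were P3h4, a partner of the lysyl hydroxylation machinery (-1.08 ± 0.18), and Pcolce, which enhances procollagen C-proteinase (-1.06 ± 0.19). On average 4 of 26 were lower (background 4.8%) and 0 higher (background 2.24%), the others being Fkbp10, a collagen-binding prolyl isomerase (-0.53), and Colgalt1, a collagen galactosyltransferase (-0.37). The collagen chaperone Serpinh1 averaged 227 ± 38.2 CPM in the controls and 163 ± 6.98 CPM with Remodelin (SD, n = 3 each), an average change that just missed (-0.37, edgeR adjusted p = 0.0502). IFN-γ alone called 0 of the 26 (background 0.0148%).

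Of 11 collagen receptors, 9 were tested, and on average 1 was lower with Remodelin: Ddr1, a collagen-activated tyrosine kinase (-0.64 ± 0.14, background 4.8%). The median of the 9 was 0.09, with 6 positive. Of 24 matrix partners, 23 were tested. Fmod, a proteoglycan that binds fibrils, was lower in both contrasts (-1.48 without and -1.51 with IFN-γ), and Tnc, a matricellular glycoprotein, was lower without IFN-γ (-2.06). On average Fmod (-1.50), Tnc (-1.21) and elastin Eln (-0.80) were lower, and Fbln2, a fibulin, was higher (0.70), which is 3 lower and 1 higher of 23 beside backgrounds of 4.8% and 2.24%.

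Markers of cells that make collagen also moved. Of 14 mesothelial markers, 13 were tested and 4 were lower with Remodelin on average (Upk3b, Upk1b, Krt19 and Krt7, background 4.8%), 3 of them also against control (background 0.653%). Upk3b changed by -1.80 and Krt7 by -0.94 on average, as large as or larger than Col3a1 (-0.93). Others on the list had positive values that were not called: Cdh1 1.06, Msln 0.64, Krt18 0.61 and Krt8 0.43 on average, and Krt18 1.03 against control with groups apart. The summed level of the list, of which Upk3b went from 46.5 ± 11.2 CPM in the controls to 11.4 ± 0.16 CPM with Remodelin (SD, n = 3 each), was 171 to 195 CPM in the controls and 157 to 170 CPM with IFN-γ, against 108 to 119 CPM with Remodelin and 110 to 123 CPM with both, without overlap, and Muc16 had fewer than 10 reads everywhere. The part of this in the collagen results was not tested. Of 12 fibroblast markers 7 were tested, and 1 was lower on average (Ccdc80, -0.38, edgeR adjusted p = 0.0395, background 4.8%). Their sum was 153 to 198 CPM in the controls, 161 to 184 with IFN-γ, 125 to 164 with Remodelin and 161 to 254 CPM with both, overlapping throughout, and Dpep1, Fap and Pi16 had fewer than 10 reads in every library. Of 9 endothelial markers 2 were tested, with Emcn at 0 in all libraries, and of 8 pericyte and smooth muscle markers 3 were tested.

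Set against Pdgfra, a receptor typical of fibroblasts, Col3a1 was at 0.817 to 1.05 times its FPKM without Remodelin and 0.391 to 0.660 times with it, a log2 change of -0.83 (exact permutation p = 0.005). Col6a1 changed against Pdgfra by -0.91 (exact permutation p = 0.005), and both separated 6 libraries from 6. Col1a2 changed by 0.10 against the same gene (exact permutation p = 0.515). These 3 comparisons are unadjusted, and Col3a1 and Col6a1 were set against Pdgfra after their separation of the libraries was known. Pdgfra is 1 of the 12 fibroblast markers, and its own change against control was -0.38 ± 0.22 with overlap. No mesothelial marker was used as a reference, and whether the number of collagen-making cells changed was not tested.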

How the data were processed

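RNA was sequenced from 12 libraries. Reads were processed with CASAVA 1.8, HISAT2 2.0.5 and featureCounts 1.5.0-p3, per the submitters' processing notes; the build, annotation release and strand setting were not stated. The deposited table holds whole-number read counts per gene and the authors' FPKM values, and the authors' own comparisons with log2 fold changes and p-values. Coordinates in it matched GENCODE M21 for 1457 of 52081 shared genes, so only RefSeq coordinates are printed.

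Counts were tested with edgeR 4.0.16 (R 4.3.3): TMM, filterByExpr by group, and 1 quasi-likelihood fit over all 12 libraries, with a common coefficient of biological variation of 18.6%. Each p-value was adjusted over 13474 genes. DESeq2 1.42.0 and limma 3.58.1 (voom) were alternatives. Ratios used reads plus 0.5. GC content was known for 13339 tested genes (99.0%). Named genes were the members, the listed genes that were called, and some listed genes that were not called. Only the edgeR fit was tried on simulated counts, for Remodelin against control, the same contrast with IFN-γ, and their average. The ratios, GC removal, replicate block and other tools were not.

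The members and gene lists were chosen with earlier results of these data known. Replicate numbers gave no sign of pairing: same-number correlations of deviations ran from -0.547 to 0.261, and 5 of 18 exceeded 0.1. Between other numbers they ran from -0.318 to 0.415, and 12 of 36 exceeded 0.1. With 3 libraries per group this cannot exclude a pairing or a shared batch.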

Additional observations from a re-analysis of the deposited data

How the results depend on the processing

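Single genes gave 2918 values under other settings. Of these, 2867 kept their side of the threshold and their called direction, 10 lost a call, 37 gained one and 4 reversed. The 4 were uncalled in the reported fit and called with the opposite sign in the other setting. The sign changed in 211 values in all, these 4 included, and the others were uncalled in both fits. The 4 reversals all came from leaving out control 1, Remodelin 1 and combined 1 together (added after seeing the data): Col1a2 0.34, Col5a1 0.62 and Col6a3 0.57 against control, and Col1a1 0.47 on average. The cause was not tested.

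For the average Remodelin effect, members called higher numbered 0 in the reported fit, 1 with DESeq2 size factors or voom, 2 with no filter, DESeq2, GC removal or the replicate block with GC removal, 8 without those 3 libraries, and 0 to 2 on leaving out 1 library. For Remodelin against control, members called lower numbered 2, but 3 with DESeq2 or no filter, 1 with the replicate block, with or without GC removal, and 0 to 2 on leaving out 1 library, while 4 were higher without the 3 libraries. With IFN-γ present, 1 was lower with no filter or without the 3 libraries and 5 higher without them. Over all genes that contrast called 271 with no filter and 1318 without the 3 libraries, in either direction. For IFN-γ against control 1 was lower in the same 2 settings, beside 52 and 418 of all genes called. For its average effect 3 were lower with no filter, beside 325 of all genes called. With the replicate block Col6a1 lost its call against control (edgeR adjusted p = 0.0506).

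Over all genes, Remodelin against control called 114, but 283 with no filter, 267 with DESeq2, 190 with GC removal, 58 with the block, 84 with block and GC removal, 22 with the 2 groups alone, 4126 without the 3 libraries and 20 to 121 on leaving out 1. The average Remodelin effect called 949, but 578 with the block, 1378 with DESeq2, 4946 without the 3 libraries and 298 to 1960 on leaving out 1, so the background of that comparison moves with them. Members under 10 reads are limited by depth.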

Other observations

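Macrophages also make proteins with collagen-like tails, and 10 of 11 such genes were tested. With Remodelin the 3 chains of complement C1q, which starts the classical pathway, were lower on average (3 of 10, background 4.8%), with log2 changes of -0.72 for C1qa, -0.62 for C1qb and -0.50 for C1qc. C1qa averaged 108 ± 14.2 CPM in the controls and 71.4 ± 15.0 CPM with Remodelin, and 105 ± 12.7 CPM with IFN-γ and 58.7 ± 3.55 CPM with both (SD, n = 3 each). In the contrast with IFN-γ present, C1qa was called on its own (-0.84).

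In the authors' deposited table Remodelin against control had 3 collagens lower, Col6a1 (-1.02), Col3a1 (-1.001) and Col6a2 (-0.90), and 0 higher. The combined libraries against control, also in the authors' deposited table, had 3 lower and 0 higher, a contrast that mixes both treatments. Against IFN-γ alone, the combined libraries had 0 lower and 0 higher there.

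Markers of T, NK and mast cells gave few reads to compare. Of 10 T and NK cell markers 2 were tested, and of 7 mast cell markers 3 were tested with 0 called. Averaged over IFN-γ, 2 of 6 tested neutrophil markers (Mmp8 and Mmp9) and 1 of 7 B cell markers (Ighm) were lower with Remodelin, beside a background of 4.8%. The neutrophil markers Cxcr2 (0.30), Csf3r (-0.04) and S100a8 (-0.21) were not called. Nor was Ltf, which changed by -1.04 against control with groups apart (background 10.3%). The neutrophil sum was 71.5 to 84.5 CPM in the controls and 71.4 to 77.0 with IFN-γ. It was 56.8 to 58.1 CPM with Remodelin and 54.3 to 55.9 with both, without overlap. Camp, Ly6g and Retnlg had fewer than 10 reads in every library. The sum includes Mmp8 and Mmp9, and Mmp9 alone was at 16.6 to 25.7 CPM in the controls and 8.07 to 11.1 CPM with Remodelin. S100a8 and Csf3r, also in the sum, overlapped between these groups. Whether the number of neutrophils changed was not tested. B cell sums of 74.7 to 80.1 CPM in the controls and 62.4 to 75.3 with Remodelin overlapped. Those of 66.0 to 78.9 CPM with IFN-γ and 50.8 to 65.8 CPM with both adjoined without overlap.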
